A study of Mus musculus with 25 samples.

Results

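H3K9me3 promoter peaks on the autosomes of regenerating mouse myofibers were examined across 4 genotypes. They were the peaks of the 12 H3K9me3 lists that lay on chromosomes 1 to 19, carried the authors' promoter annotation, which reaches 3 kb from a transcript start, and were assigned to a gene whose name does not begin with Zfp, Olfr or Vmn. There were 1813 such peaks among 20998 H3K9me3 peaks and 55242 peaks of both marks, and they were assigned to 610 genes, counting 1 without a name. A further 669 autosomal promoter peaks belonged to the zinc finger, olfactory receptor and vomeronasal receptor genes named above and were set apart. The rule used only position, annotation and gene name, so peak number, score and recurrence did not enter it directly. Width was not free of it, since a broad peak reaches a start more readily.

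H3K9me3, trimethylation of lysine 9 of histone H3, marks constitutive heterochromatin over satellite repeats and transposons, and also silenced gene clusters such as those of zinc finger genes and germline genes. It is written by SUV39H and SETDB1 enzymes, read by HP1 proteins and removed by KDM4 demethylases. H3K27me3, the mark of the Polycomb system, generally covers other silenced genes, including developmental promoters with many CpG dinucleotides.

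ChIP-seq of both marks had been carried out on Dendra2+ myofibers dissected from tibialis anterior muscle 14 days after injury, with 3 libraries per genotype and mark. The wild-type and all mutant mice had the same mito-Dendra2 reporter, switched on by a Pax7-Cre(ERT2) driver and so kept in the progeny of muscle stem cells, and all received 75 mg/kg tamoxifen daily for 5 days before 50 µL of 1.2% BaCl2. The mfn2-/- mice lacked mitofusin 2, a mitochondrial fusion protein, in these cells, vhl-/- mice lacked the protein that targets HIF1α for degradation, and HIF1dPA mice expressed a HIF1α with proline-to-alanine changes that VHL does not recognise. The labels give no age, sex or strain. Libraries of a genotype were biological replicates per the figure legends of the study, which give 3 mice per group for wild-type and mfn2-/-. For vhl-/- and HIF1dPA the legends do not give the number of mice behind the libraries. The p-values measure the spread between these libraries. Read depth is unknown, the lists give no expression, and the identity of the cells could not be checked by markers. None of 19 marker genes of myofibers, satellite cells, endothelium, leukocytes and fibroblasts had a promoter peak in these lists.

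The annotation called a peak a promoter peak by its distance from any transcript start in the authors' annotation, and few peaks lay over a start in RefSeq. Of the 1813 peaks, 93 (5.13%) touched a RefSeq promoter window, defined as the 300 bases from 250 before to 50 after a start (build GRCm38.p6, which has the coordinates of the authors' mm10). The share was 1.23% to 6.25% by library. Such windows numbered 43, of 37 genes, among 31396 windows examined. For the regions found in at least 6 libraries, 32 pairs of region and gene could be matched to a RefSeq start. The start lay inside the region in 4 pairs and within 3 kb in 10, and the median distance was 11.4 kb. The promoter peaks are therefore named here after genes whose main start they often did not cover.

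The 5 windows that a promoter peak touched in at least 6 libraries show what marked promoter sequence looked like in these lists. They are printed 5′ to 3′ on the strand of the gene, from RefSeq, with each CpG in capitals. A530032D15Rik (chr1:85109804-85110103, minus strand) and A530040E14Rik (chr1:85105843-85106142, plus strand) lie in the Sp100-Sp110-Sp140 cluster of nuclear body genes. Ugt1a1 (chr1:88211709-88212008, plus strand) encodes the enzyme that conjugates bilirubin. Trpm8 (chr1:88306485-88306784, plus strand) encodes the cold-sensing cation channel. Duxf3 (chr10:58233040-58233339, minus strand) belongs to the Dux family of homeobox genes, which act in the cleavage-stage embryo.
A530032D15Rik: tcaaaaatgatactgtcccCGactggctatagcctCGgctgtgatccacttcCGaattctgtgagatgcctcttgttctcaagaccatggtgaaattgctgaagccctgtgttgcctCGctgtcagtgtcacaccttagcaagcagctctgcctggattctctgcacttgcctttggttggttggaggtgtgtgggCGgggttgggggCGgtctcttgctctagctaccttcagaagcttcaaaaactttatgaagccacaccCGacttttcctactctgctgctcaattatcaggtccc
A530040E14Rik: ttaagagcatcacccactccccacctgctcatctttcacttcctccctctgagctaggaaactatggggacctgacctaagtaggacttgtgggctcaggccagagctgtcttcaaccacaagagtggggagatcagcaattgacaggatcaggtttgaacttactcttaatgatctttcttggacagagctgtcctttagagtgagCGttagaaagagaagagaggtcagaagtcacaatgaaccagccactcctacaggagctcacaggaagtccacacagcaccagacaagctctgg
Ugt1a1: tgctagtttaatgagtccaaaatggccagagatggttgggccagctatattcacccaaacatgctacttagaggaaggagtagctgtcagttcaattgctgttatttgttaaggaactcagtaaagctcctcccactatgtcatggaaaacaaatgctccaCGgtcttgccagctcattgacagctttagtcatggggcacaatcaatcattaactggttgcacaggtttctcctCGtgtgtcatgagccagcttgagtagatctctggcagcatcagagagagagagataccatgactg
Trpm8: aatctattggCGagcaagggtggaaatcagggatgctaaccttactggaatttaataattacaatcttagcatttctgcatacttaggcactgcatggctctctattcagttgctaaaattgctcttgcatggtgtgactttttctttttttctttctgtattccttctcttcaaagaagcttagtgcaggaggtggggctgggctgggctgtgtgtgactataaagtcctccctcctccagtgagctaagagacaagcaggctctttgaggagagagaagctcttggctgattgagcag
Duxf3: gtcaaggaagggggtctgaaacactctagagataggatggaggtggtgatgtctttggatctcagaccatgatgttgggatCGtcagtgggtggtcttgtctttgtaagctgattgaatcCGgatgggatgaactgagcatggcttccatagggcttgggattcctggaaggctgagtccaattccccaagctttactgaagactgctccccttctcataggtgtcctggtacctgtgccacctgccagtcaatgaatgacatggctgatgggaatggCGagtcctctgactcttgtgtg

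Of these windows, all but that of A530032D15Rik held fewer CpG dinucleotides than the median of 7 over all 31396 windows. A530032D15Rik had 7, Duxf3 had 3, Ugt1a1 had 2, and A530040E14Rik and Trpm8 had 1 each. Peaks touched the A530040E14Rik window in 8 libraries (3 wild-type, 3 vhl-/- and 2 HIF1dPA), the A530032D15Rik window in 7 (3, 2 and 2) and the Ugt1a1 window in 7 (3, 3 and 1). The Trpm8 window was touched in 6 libraries (3 wild-type, 2 vhl-/- and 1 HIF1dPA). No mfn2-/- library had a promoter peak on any of these 4 windows. The Duxf3 window was touched in 9 libraries, including 1 of mfn2-/-. Over all 43 touched windows the median GC content was 49.7%, compared with 53.0% over all windows. The letters TGCCGC, the hexamer bound by ZFP57, were present on either strand in 2 of the 43 touched windows (4.65%) and 11.6% of all windows, and the E-box CACGTG in 1 (2.33%) and 7.14%. The E2F-type letters GGCGGGAA were in 0 of the 43 touched windows and in 2.17% of all windows. Such counts are too small to set against the shares over all windows. The 26 windows of genes with a region in at least 6 libraries, whether touched or not, had the same median of 7 CpG as all windows, CACGTG in 2 (7.69%) and TGCCGC in 0.

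Wild-type libraries held the most promoter peaks. The 3 wild-type libraries had 247, 247 and 224, the mfn2-/- libraries 98, 81 and 106, the vhl-/- libraries 133, 112 and 135, and the HIF1dPA libraries 148, 147 and 135. No mutant library reached the lowest wild-type library. The mean was 239 ± 13.3 for wild-type. It was 95.0 ± 12.8 for mfn2-/-, 127 ± 12.7 for vhl-/- and 143 ± 7.23 for HIF1dPA libraries (SD, n = 3 libraries each). The number differed over the 4 genotypes (exact permutation test, p = 0.00013, adjusted p = 0.00122 over 15 tests), and the 9 mutant libraries had 0.4998 times the wild-type number (two-sided exact permutation test, p = 0.00455, the smallest that 3 against 9 libraries can give; adjusted p = 0.00852). With each list limited to its 780 strongest peaks, the ratio was 0.752 (same exact permutation test, p = 0.0136). That cut left the shortest list, of mfn2-/- replicate 2, whole and was stricter in the longer wild-type lists. Since promoter peaks scored higher than other peaks of their list, no conclusion is drawn from this ratio. Set against the same wild-type libraries one genotype at a time, mfn2-/- had 0.395, vhl-/- 0.528 and HIF1dPA 0.599 times the number (exact permutation p = 0.1 for all, which is the limit of 3 against 3 libraries). The peaks covered 381 to 479 kb per library in wild-type, 104 to 128 kb in mfn2-/-, 214 to 226 kb in vhl-/- and 237 to 272 kb in HIF1dPA.

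Whole lists were shorter in the mutants too, with 2176 to 2407 autosomal peaks in wild-type and 780 to 1588 in mutant libraries, and the promoter share of each list varied little with genotype. Among autosomal peaks outside the gene families set apart, promoter peaks made up 14.8%, 13.3% and 13.1% in wild-type, 11.7%, 13.4% and 9.74% in mfn2-/-, 17.3%, 13.4% and 13.7% in vhl-/-, and 12.8%, 12.0% and 15.2% in HIF1dPA libraries. The ranges overlapped, and neither the 4 genotypes (exact permutation test, p = 0.233) nor mutants against wild-type (-0.480 percentage points, exact permutation test, p = 0.732) passed the test. When each list was limited to its 780 strongest peaks, the mutant share was lower by 6.05 points (exact permutation test, p = 0.00909). That cut was stricter in the longer wild-type lists, and promoter peaks scored higher than other peaks of their list. It therefore did not treat the genotypes alike, and no conclusion is drawn from this difference. Whether fewer marked cells, less mark per cell or shallower sequencing shortened a list cannot be told apart.

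**Figure D1:**
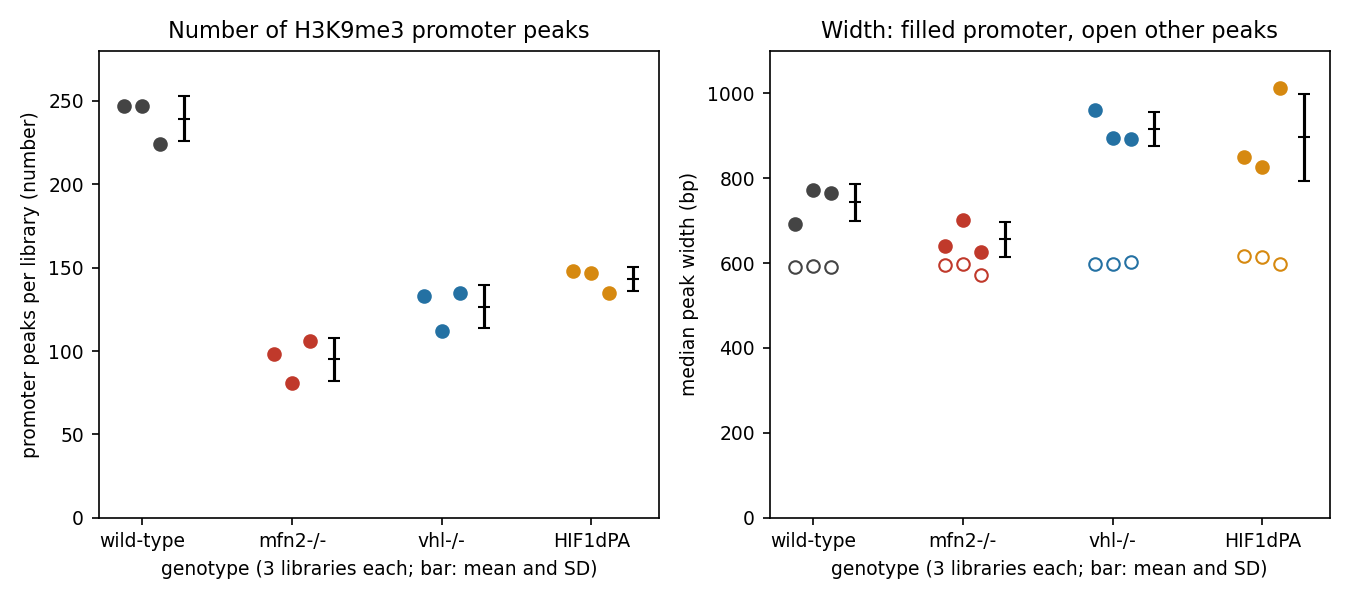
Left, number of autosomal H3K9me3 promoter peaks per library (points), and right, median width in bp of promoter peaks (filled) and other autosomal peaks (open), by genotype, with mean and SD of 3 libraries as bars. All 9 mutant libraries lie below the 3 wild-type libraries in number, and promoter peaks are wider than other peaks in every library.

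Promoter peaks were broader, stronger and more often shared than other autosomal H3K9me3 peaks of the same list. Their median width was 626 to 1013 bp per library, compared with 573 to 617 bp for peaks outside promoters, a mean ratio of 1.33 with a higher value in 12 of 12 libraries (exact sign-flip permutation test, p = 0.000488, the smallest possible, adjusted p = 0.00122). The median percentile of the peak score within its list, the score being the caller's p-value as -10 × log10, was 20.4 points higher (same exact test, p = 0.000488). A peak of another library of the genotype overlapped 41.2% to 57.6% of promoter peaks and 16.8% to 27.5% of the others, a mean difference of 26.5 points (same exact test, p = 0.000488). Crowded stretches carried much of these differences. Without the 10 fullest 1 Mb bins, all 3 still passed the same exact permutation test, but the width ratio was 1.03, the score difference 10.6 points and the recurrence difference 11.1 points. Libraries of a genotype share their overlaps, so the 12 differences in that last measure are not independent. A broad peak also reaches a start and meets another peak more readily, so the width and recurrence differences are not free of the rule. In the class up to 1 kb, which had the broadest peaks, the score difference was 29.8 points, so score may not be free of it either.

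Width also varied with distance class. Peaks within 1 kb of a start numbered 923 (50.9%) and had a median width of 1073 bp, those at 1 to 2 kb numbered 466 (25.7%) with 708 bp, and those at 2 to 3 kb numbered 424 (23.4%) with 654 bp. A broad peak can reach a start more readily, so width and class are not separate measures. The share within 1 kb was 45.7%, 57.9% and 48.2% in wild-type, 52.0%, 45.7% and 45.3% in mfn2-/-, 49.6%, 49.1% and 49.6% in vhl-/- and 66.9%, 47.6% and 48.9% in HIF1dPA libraries. It did not pass the test over genotypes (exact permutation test, p = 0.718) or between mutants and wild-type (-0.0901 points, exact permutation test, p = 0.995).

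Median width differed over genotypes. It was 693, 771 and 765 bp in wild-type, 640, 701 and 626 bp in mfn2-/-, 961, 894 and 892 bp in vhl-/- and 850, 826 and 1013 bp in HIF1dPA libraries. All vhl-/- and HIF1dPA values were above the wild-type range, while mfn2-/- values ran from below it into it. The 4 genotypes differed (exact permutation test, p = 0.00175, adjusted p = 0.00376). Relative to wild-type, width was 0.882-fold in mfn2-/- (exact p = 0.2), 1.23-fold in vhl-/- and 1.20-fold in HIF1dPA libraries (exact p = 0.1 each). This difference rested on a few crowded stretches: without the 10 fullest 1 Mb bins, which held 805 peaks (44.4%), p was 0.772 and mfn2-/- had 1.02 times the wild-type width. The direction also depended on list length: with lists of equal length all 3 mutants were narrower than wild-type, at 0.469-fold in mfn2-/-, 0.786-fold in vhl-/- and 0.840-fold in HIF1dPA. The cut to equal length was stricter in the longer wild-type lists. At a score of at least 100 the mfn2-/- ratio was 0.713.

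The peaks formed clusters along the chromosomes. Chained where gaps were at most 500 kb, they fell into 299 clusters, of which 180 held 1 peak, and the 12 largest held 986 peaks (54.4%). The clusters were drawn after the peaks had been seen, so their counts are descriptions without a test. Genotypes differed in which clusters they marked.

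The largest cluster, on chromosome 4 at 145403205 to 146077359, was marked in every library. It holds the zinc finger pseudogene Znf41-ps, the noncoding RNA gene Platr16 and predicted genes such as Gm13034. It had 29, 24 and 27 promoter peaks in wild-type, 9, 14 and 13 in mfn2-/-, 17, 18 and 19 in vhl-/- and 16, 19 and 19 in HIF1dPA libraries, which was 9.18% to 17.3% of each library's promoter peaks. A second chromosome 4 cluster, led by Gm13136, had 11 to 14 in wild-type and 2 to 8 in mutant libraries. As a share of promoter peaks this was 4.45% to 5.80% and 1.79% to 5.93%, so the ranges overlapped.

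The second largest cluster was absent from mfn2-/- libraries. It spans 85003751 to 86015231 on chromosome 1, with A530032D15Rik, C130026I21Rik, Sp100, Sp110 and Sp140, a family of interferon-induced nuclear body proteins. Promoter peaks there numbered 26, 29 and 25 in wild-type, 14, 13 and 11 in vhl-/- and 12, 10 and 20 in HIF1dPA libraries, and 0 in each mfn2-/- library. All autosomal H3K9me3 peaks in that span, promoter or not, numbered 64 to 81 in wild-type, 33 to 35 in vhl-/-, 24 to 41 in HIF1dPA and 0 in mfn2-/- libraries. The largest score in the span lay between 170 and 516 in the 9 libraries that had peaks. In no library did the span hold an H3K27me3 peak. A count of 0 is absence from the list, and since the labels do not give the strain background of each line, genotype and strain cannot be told apart here, at Aida or at the heavy chain cluster described below. The Sp140 region at 85603434 to 85616573 had top scores of 275, 371 and 131 in wild-type, 65.6, 55.9 and 69.4 in vhl-/- and 113, 241 and 110 in HIF1dPA.

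A neighbouring stretch of chromosome 1, at 88210979 to 88310906, was also fullest in wild-type. It holds Mroh2a, the Ugt1a genes and Trpm8. Promoter peaks numbered 13, 13 and 9 in wild-type, 7, 4 and 4 in vhl-/-, 3, 1 and 0 in HIF1dPA, and 0 in each mfn2-/- library. As a share of promoter peaks, wild-type (4.02% to 5.26%) and vhl-/- libraries (2.96% to 5.26%) overlapped, and HIF1dPA libraries had 0% to 2.03%. At the Trpm8 region (88305725 to 88310906), which contains the window printed above, top scores were 97.9, 90.4 and 54.9 in wild-type, 69.8 and 70.4 in 2 vhl-/- libraries and 82.3 and 64.6 in 2 HIF1dPA libraries.

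The third largest cluster was the reverse. It covers the immunoglobulin heavy chain variable segments on chromosome 12 (113654556 to 115999542), the gene segments from which B cells assemble antibodies, with 41 genes in 58 regions. Promoter peaks numbered 3, 1 and 1 in wild-type and 2, 0 and 2 in mfn2-/-, but 15, 13 and 14 in vhl-/- and 23, 19 and 20 in HIF1dPA libraries. The vhl-/- and HIF1dPA libraries all lay above the others although their lists were shorter than those of wild-type. All autosomal H3K9me3 peaks in the span numbered 6, 9 and 7 in wild-type, 4, 2 and 5 in mfn2-/-, 34, 33 and 34 in vhl-/- and 50, 55 and 46 in HIF1dPA. The largest score was 60.5 to 88.7 in wild-type and mfn2-/- and 131 to 227 in vhl-/- and HIF1dPA libraries. Of the leukocyte markers Ptprc, Cd68 and Adgre1, none had a promoter peak, and a list of marks cannot say which cells contributed.

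Several further clusters had most of their peaks in wild-type, whose lists were also the longest. The Obox cluster of oocyte homeobox genes on chromosome 7 had 22, 17 and 15 promoter peaks in wild-type, 2, 0 and 0 in mfn2-/-, 7, 3 and 4 in vhl-/- and 7, 5 and 4 in HIF1dPA. This was 6.70% to 8.91% of each library's promoter peaks in wild-type and 0% to 5.26% in mutant libraries. A chromosome 17 cluster with Tcte2, of the t-complex, and the sperm kinase genes Smok2a and Smok2b had 14, 8 and 11 in wild-type and 1 to 4 in mutant libraries. Its share was 3.24% to 5.67% in wild-type and 0.943% to 3.70% in mutant libraries, so the ranges overlapped. The Pramel cluster on chromosome 5 had 7, 6 and 5 in wild-type, 0 in each mfn2-/- library and 1 to 6 in the others. Protocadherin genes on chromosome 18, which encode neuronal adhesion proteins, had 8, 7 and 6 in wild-type and 0 to 4 in mutants. The Pramel and protocadherin counts were not scaled to list length. A chromosome 13 cluster led by Gm10139 went the other way, with 4, 2 and 1 in wild-type and 3 to 8 in mutant libraries.

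**Figure D2:**
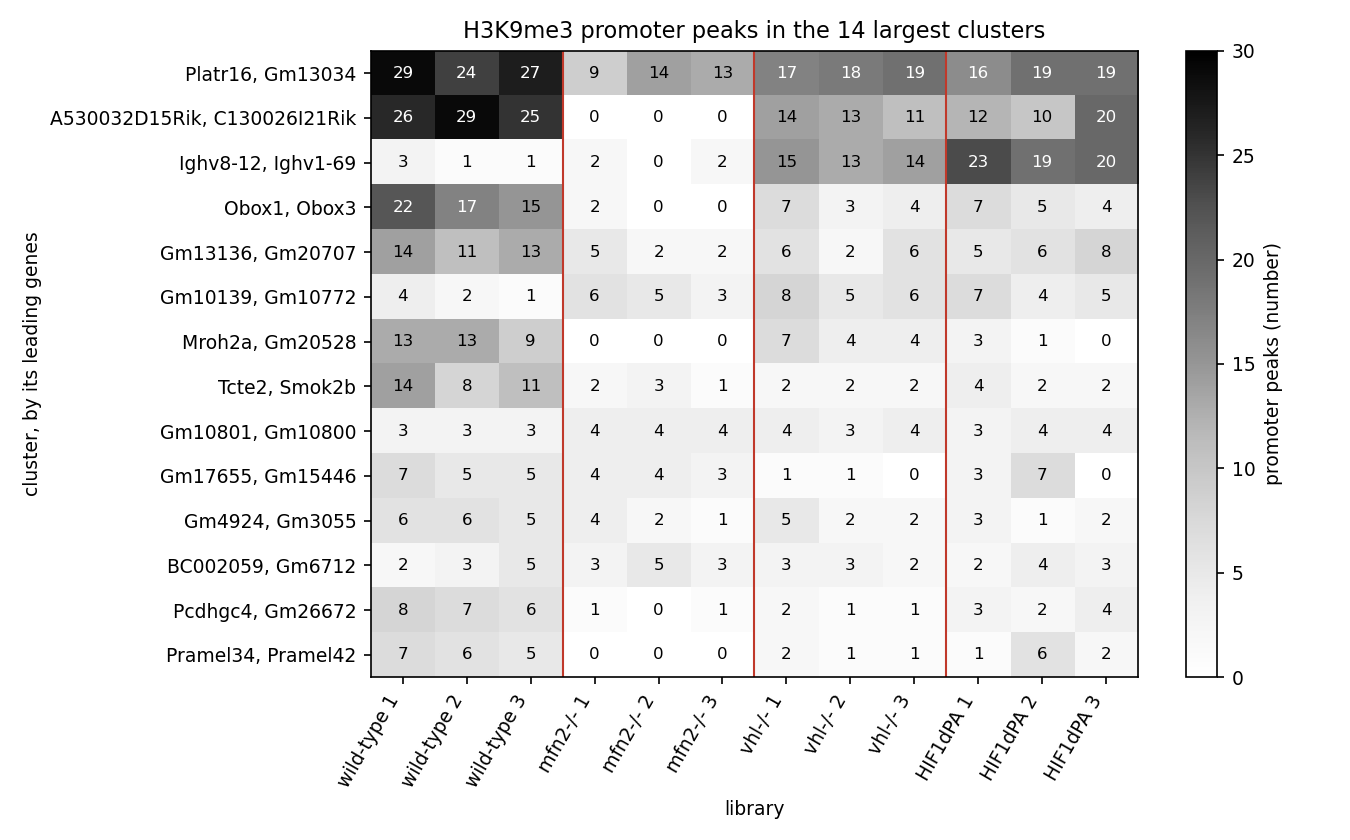
Number of autosomal H3K9me3 promoter peaks (grey scale and digits) in the 14 largest clusters (rows, named by leading genes) of each of the 12 libraries (columns, red lines between genotypes). The A530032D15Rik row is at 0 in all 3 mfn2-/- libraries, and the Ighv8-12 row is at 13 to 23 in vhl-/- and HIF1dPA libraries and at 0 to 3 in the others.

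To compare recurrence, overlapping autosomal peaks of the 12 lists were merged, which gave 11350 regions, of which 831 held a promoter peak. A library was counted for a region when any of its autosomal peaks overlapped it. Of the 831, 598 (72.0%) were found in 1 library, 167 in 2 to 5, and 66 (7.94%) in 6 to 12. Among 8550 regions holding peaks outside promoters, the corresponding shares were 87.5%, 10.7% and 1.80%. Median region width rose with recurrence, from 583 bp in 1 library to 1162 bp in 2 to 5 and 4837 bp in 6 to 12. Merging widens a region with each library it joins, so this rise is partly built in. A region also counts as a promoter-peak region when any of its libraries has a promoter peak there. With more libraries it has more occasions to qualify, so the greater recurrence, here and in the patterns below, is partly built in too. Regions of a single library came from wild-type in 249 cases, mfn2-/- in 109, vhl-/- in 101 and HIF1dPA in 139.

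**Figure D3:**
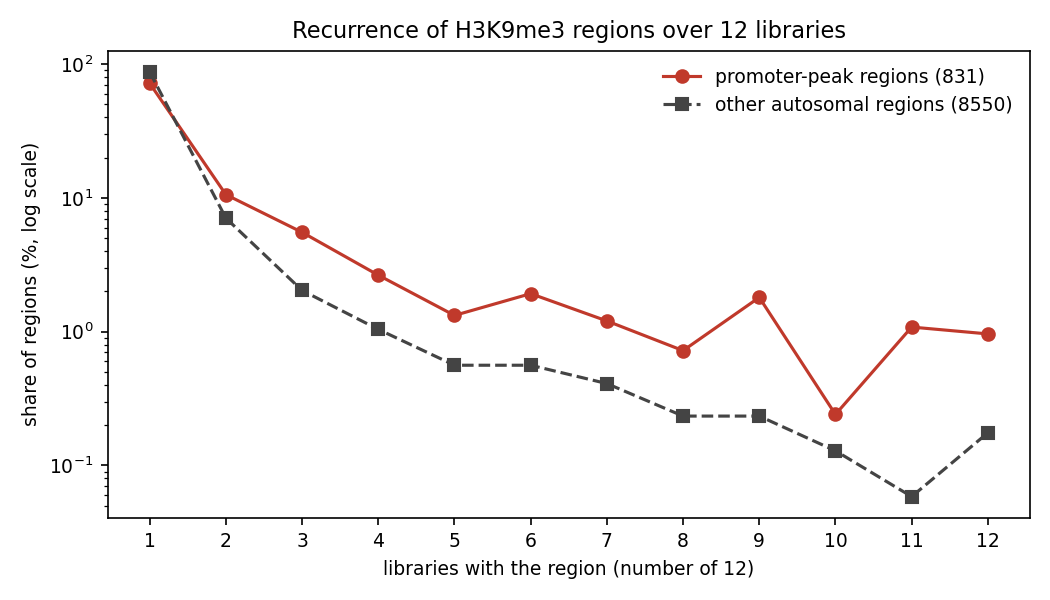
Share of regions (%, log scale) against the number of libraries, of 12, in which a region was found, for regions holding a promoter peak (red) and other autosomal regions (grey). Promoter-peak regions have the smaller share in 1 library, 72.0% against 87.5%, and the larger share at every higher number. A region in more libraries has more occasions to hold a promoter peak, so this contrast is partly built in.

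On average, lists of the same genotype resembled each other more than lists of different genotypes, though HIF1dPA lists were closer to vhl-/- lists than to each other. The Jaccard index of promoter peaks, the overlap of 2 lists in base pairs divided by their union, was 0.297 within and 0.182 between genotypes (difference 0.115, one-sided exact permutation test, p = 0.000325, adjusted p = 0.00122). It was 0.386 between wild-type lists, 0.312 between vhl-/- lists and 0.246 and 0.245 between HIF1dPA and between mfn2-/- lists. Across genotypes, wild-type and mfn2-/- had the lowest value, 0.0990, and vhl-/- and HIF1dPA the highest, 0.277. The index cannot exceed the smaller coverage divided by the larger. Promoter peaks covered 381 to 479 kb per library in wild-type and 104 to 128 kb in mfn2-/-. Coverage was closer between vhl-/- (214 to 226 kb) and HIF1dPA (237 to 272 kb). This ranking and the difference within minus between genotypes are therefore not free of coverage, and similarity apart from coverage was not tested. Wild-type lists had 0.248 with vhl-/-, as high as HIF1dPA or mfn2-/- lists had among themselves, and 0.241 with HIF1dPA.

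The share of promoter peaks seen in another replicate was 56.3%, 53.8% and 57.6% in wild-type and 41.2% to 53.6% in the mutants, a mean difference of -8.18 points (two-sided exact permutation test, p = 0.0227, adjusted p = 0.0379). The lowest wild-type value was above the highest mutant value by a narrow margin. The call was lost at a score of at least 100 and in the class up to 1 kb (exact permutation p = 0.195 in both), when 1 peak was kept per gene (p = 0.273, exact permutation), and when another peak had to cover the midpoint (p = 0.0818) or 50% (p = 0.0545) of a peak. It also reversed when any wild-type library was left out, since the other 2 then had 1 partner each: the difference became 2.18 points without replicate 1, 2.22 without replicate 2 and 2.38 without replicate 3.

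Regions found in all 12 libraries numbered 8 (0.963% of 831, compared with 0.308% of all 11350 autosomal regions). The strongest was at the predicted genes Gm10801 (chr2:98661690-98665645) and Gm10800 (chr2:98665738-98667840), in a stretch known for satellite repeats. Top scores at Gm10801 were 1876, 2700 and 1986 in wild-type, 770, 1641 and 3100 in mfn2-/-, 704, 285 and 719 in vhl-/- and 612, 646 and 803 in HIF1dPA libraries. Gm10801 had an H3K27me3 peak in 11 of 12 libraries of that mark and Gm10800 in 8. How reads that map to several places were treated is not given in the sources used here.

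The other regions of this kind lay near Tcte2 (chr17:13549578-13553489), near Gm8935 (chr3:12855591-12858968) and, for 4 of them, in the chromosome 4 cluster. Scores at Tcte2 were 1037, 1223 and 807 in wild-type, 80.6, 72.2 and 66.9 in mfn2-/-, 240, 304 and 391 in vhl-/- and 182, 301 and 167 in HIF1dPA. Peaks there were 2919 to 3912 bp wide in wild-type and 393 to 952 bp in mfn2-/- libraries. The wild-type libraries were highest and mfn2-/- lowest without overlap, although scores grow with depth, which is unknown. The RefSeq start of Tcte2 lies 208 kb away. At Gm8935 the order was different, with 274, 479 and 288 in wild-type, 276, 224 and 285 in mfn2-/-, 81.3, 68.2 and 66.3 in vhl-/- and 130, 108 and 80.9 in HIF1dPA, so wild-type and mfn2-/- libraries overlapped and stood above the other genotypes.

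A further 9 regions were found in 11 libraries. All but 1 were assigned to Gm21978, Gm10139, Gm13141, Gm13246, Gm13224, Gm4924, BC002059 or B230307C23Rik. The exception, the region of Litaf, which encodes a lysosomal membrane protein, was a single narrow peak (chr16:10974584-10975507). Scores were 134, 204 and 115 in wild-type, 122 and 75.4 in 2 mfn2-/- libraries, 85.1, 107 and 96.7 in vhl-/- and 98.6, 146 and 105 in HIF1dPA, and mfn2-/- replicate 3 had no peak. Widths were 355 to 755 bp, and the RefSeq start of Litaf lies 17.6 kb away. The region near Smo (chr6:29747543-29749061), the signal transducer of the Hedgehog pathway, was found in 9 libraries. Its scores were 257, 309 and 420 in wild-type, 63.9 in 1 mfn2-/- library, 103, 105 and 132 in vhl-/- and 122 and 76.5 in 2 HIF1dPA libraries. It lies 12.0 kb from the RefSeq start.

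Regions were next sorted by complete presence in 3 libraries of one genotype and absence from another. Against mfn2-/-, 35 of 552 promoter-peak regions were in all wild-type and no mfn2-/- libraries (background over all 7137 autosomal regions 1.99%), and 3 were the reverse (0.266%). Against vhl-/- the numbers were 18 of 569 (background 1.15%) and 5 (0.573%), and against HIF1dPA 17 of 606 (1.07%) and 5 (0.638%). These shares were 6.34%, 3.16% and 2.81% of promoter-peak regions for presence in wild-type only. A region in all 3 wild-type libraries has more occasions to hold a promoter peak than a region in fewer. The excess over the background is therefore partly built in. Many of these regions lay in crowded stretches. Without the 10 fullest 1 Mb bins the number against mfn2-/- fell from 35 to 7, and the numbers against vhl-/- and HIF1dPA fell too. Against all mutants together, 7 of 831 were in wild-type only (background 0.344%) and 0 in every mutant library and no wild-type library (0.0176%). The 3 contrasts share the wild-type libraries, and shorter mutant lists raise the number absent from them.

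The regions complete in wild-type and absent from all 9 mutant libraries were near Gm12735, Mroh2a, Obox4-ps29, Gm10354, Trpm8, C130026I21Rik and Smok2b. Some of these genes also had peaks elsewhere in mutants. Other regions of Mroh2a and Trpm8 were in 7 libraries each and another of C130026I21Rik in 9, and Smok2b had a promoter peak in HIF1dPA replicate 2. The strongest region in wild-type only was Gm12735 (chr11:3180533-3200472), near the centromeric end of chromosome 11. Its scores were 662, 389 and 726 and its peaks 19655, 19637 and 19915 bp wide in the wild-type libraries. These were among the widest promoter peaks of the series, together with its neighbours Gm11400 (31076 bp) and Gm11399 (23724 bp), and Gm16028 (22618 bp) and Gm16094 (18890 bp) of the Sp100 cluster, all in wild-type libraries.

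Absence from mfn2-/- alone was a second pattern. In all, 8 of 831 promoter-peak regions (0.963%) were in all 9 wild-type, vhl-/- and HIF1dPA libraries and in no mfn2-/- library, and so were 19 of all 11350 autosomal regions (0.167%), the 8 included. Of the 8, 7 lay in the Sp100 cluster, among them Gm6264 (chr1:85160341-85172029), with scores of 185, 397 and 257 in wild-type, 138, 173 and 80.2 in vhl-/- and 171, 254.1 and 236 in HIF1dPA. The other was Aida (chr1:183299002-183299820), which encodes an axin-interacting protein. Scores at Aida were 364, 400 and 515 in wild-type, 196, 220 and 204 in vhl-/- and 224, 256 and 172 in HIF1dPA. The peak was 703 to 818 bp wide in all 9, and ended 1.94 kb from the RefSeq start. H3K27me3, read from separate libraries, had a peak at the same place in 8 of the 9 libraries of these genotypes and in 0 of 3 mfn2-/- libraries.

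Presence in vhl-/- and HIF1dPA alone was complete for 3 regions (0.361%, compared with 0.185% of all autosomal regions), near Gria1 and near the heavy chain segments Ighv8-12 and Ighv1-74. The Gria1 peak (chr11:57175770-57176348), assigned to the gene of an AMPA-type glutamate receptor subunit, had scores of 58.3, 94.5 and 70.7 in vhl-/- and 104, 76.0 and 61.5 in HIF1dPA. At Ighv8-12 (chr12:115644147-115651348) scores were 53.6, 50.9 and 93.7 in vhl-/- and 134, 94.6 and 83.7 in HIF1dPA. Regions at Ighv1-66, Ighv1-67, Ighv1-69 and Cbx3-ps1, a pseudogene of the gene for HP1γ, were complete in 1 of these genotypes, absent from wild-type and partial in the other.

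Presence in wild-type and mfn2-/- alone was seen at 9230019H11Rik (chr10:3115867-3117494), with scores of 953, 976 and 768 in wild-type, 71.9, 67.3 and 115 in mfn2-/- and no peak in vhl-/- or HIF1dPA libraries. Gm17019 and Gm21847 had the same presence, which makes 3 of 831 regions (0.361%), compared with 0.0617% of all autosomal regions. In mfn2-/- only, 2 regions were complete (0.241%, compared with 0.0881% of all autosomal regions), at 6820431F20Rik and at Rxylt1, whose product adds xylose to the glycan of α-dystroglycan. The Rxylt1 peak (chr10:122085474-122087112) had scores of 88.8, 58.9 and 87.5. Gm10330 on chromosome 12 had 156, 102 and 153 in mfn2-/- and also 53.3 in 1 vhl-/- library.

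**Figure D4:**
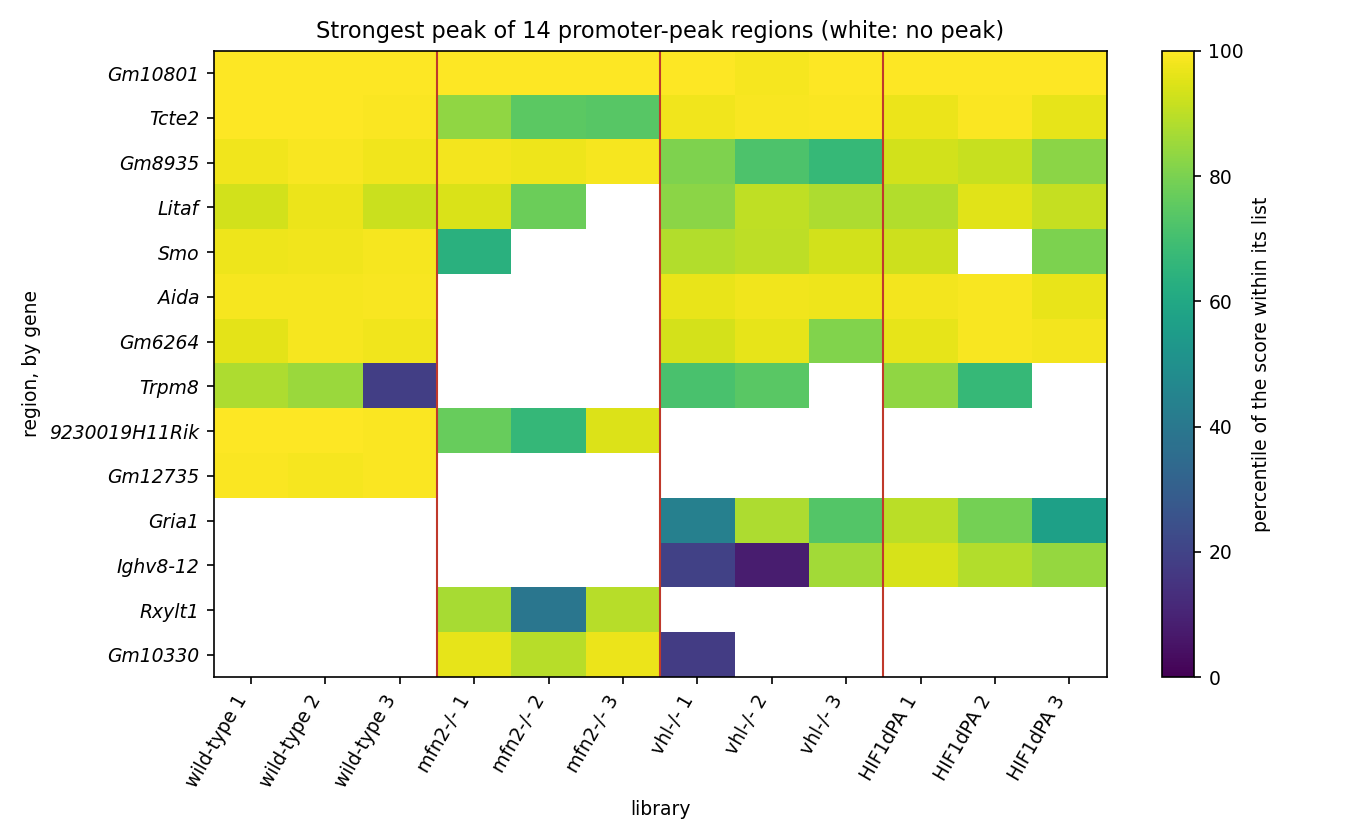
Percentile within its own list of the strongest H3K9me3 peak (colour, white where there is no peak) at 14 promoter-peak regions (rows, by gene) in the 12 libraries (columns, red lines between genotypes). Aida and Gm6264 are white in the 3 mfn2-/- libraries, Gm12735 is coloured in the 3 wild-type libraries only, and Gria1 and Ighv8-12 only in the 6 vhl-/- and HIF1dPA libraries.

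Promoter peaks overlapped an H3K27me3 peak of the same genotype somewhat more often than other autosomal H3K9me3 peaks, by 2.84 points (exact sign-flip permutation test, p = 0.000488, adjusted p = 0.00122). The overlap was small in both, with 2.43% to 7.41% of promoter peaks and 0.806% to 2.20% of the others. Libraries of a genotype were set against the same H3K27me3 lists, so the 12 differences are not independent. Of 67 overlapping promoter peaks, 41 were at Gm10800 and Gm10801. Without that pair of genes the difference was 0.273 points and positive in 7 of 12 libraries (p = 0.380, same exact permutation test). The remaining 26 were at Aida, Smo, 9230019H11Rik, Tcte2, Gm36079, Tmem125, Esrp1, Gm21188 and Tchh. At Tcte2 and 9230019H11Rik the overlap was in mfn2-/- only, where the H3K9me3 score of each region was lowest among the genotypes that had a peak.

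RefSeq matched 522 of the 610 by name. Of these, 50.0% were protein coding, 29.9% pseudogenes and 8.62% immunoglobulin or T cell receptor segments, compared with 43.9%, 19.8% and 1.21% of 47042 autosomal RefSeq genes. Long noncoding RNA genes made up 5.36% and 26.4%. Predicted genes with a Gm number were 255 of the 610 (41.8%). Although genes named Zfp were left out, a Zfp gene started within 100 kb of 11.1% of promoter-peak regions, compared with 3.70% of other regions. Promoter peaks lie near gene starts by rule, and for the starts of all autosomal RefSeq genes the share was 4.69%. For regions in 1 library the shares were 6.69% and 2.85%, and for regions in 6 to 12 libraries 31.8% and 12.99%. In all, 67 genes had a promoter peak in at least 6 libraries and 367 in 1 library.

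Gene lists were set beside the share of all autosomal RefSeq genes that had a promoter peak, 1.11% (521 of 47042). The lists were chosen with earlier results of these data known, and several listed genes are neighbours in the clusters above. The shares are therefore descriptions without a test. Multicopy families had 18 of 113 genes (15.9%), among them Obox1 and Obox3 in 7 libraries each, Sp140 in 8 and Duxf3 in 9. Zinc finger genes under other names had 7 of 87 (8.05%), with Znf41-ps in 12, D130040H23Rik in 9, and Gm5141 and 2610044O15Rik8 in 7 libraries each. Clustered protocadherins had 7 of 58 (12.1%), and Pcdhgc4 was found in 6 libraries. Imprinted genes had 4 of 56 (7.14%), of which Airn, the antisense RNA gene that silences Igf2r, was in 2 libraries. Mest, Blcap and Meg3 all came from mfn2-/- replicate 3, with scores of 59.2, 53.1 and 55.1, near the minimum of 50. Without that library 1 of 56 imprinted genes was left (1.79%), with a background of 1.03%. The lists hold many near-identical copies, between which reads cannot always be told apart.

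Lists of direct interest to muscle and hypoxia held no promoter peak. Counts were 0 of 42 muscle genes, 0 of 44 hypoxia genes, 0 of 36 genes of the H3K9 methylation machinery and 0 of 54 germline genes silenced by promoter methylation. At the background share of 1.11%, lists of this length would hold fewer than 1 gene each. Myh8, the neonatal myosin heavy chain gene, Hif1a, Mfn2, Vhl and the demethylase genes Kdm4b, Kdm4c and Kdm6b had no H3K9me3 peak assigned to them in any of the 12 libraries, so the lists give no check of the deleted genes.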

How the data were processed

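The peaks of 12 H3K9me3 and 12 H3K27me3 libraries were analysed, with groups and replicate numbers taken from the labels. Per the submitters' processing notes the authors used BWA 0.7.5, MACS, deepTools 3.5.0 and the build mm10, and each library has its own list. Per the labels, myofibers were crosslinked with 1% formaldehyde and their chromatin was broken into fragments near 500 bp. The deposited score of a peak is 10 times the negative log10 of its p-value, from 50 (a p of 1e-05) to 3100, and is not scaled for depth. No read totals were in the lists, so no interval or floor was computed. The lists also give the authors' gene and distance class for each peak. The use of an input and the treatment of duplicate or multiply mapping reads are not given in the sources used here.

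Peaks and regions overlapped when they shared at least 1 bp. Tests were exact permutations over libraries: 15400 partitions into 4 genotypes, 220 arrangements of 3 against 9, 20 of 3 against 3 and 4096 sign flips. Peak number and width were tested as log2, and 15 tests were adjusted by Benjamini-Hochberg. Genes were named where a region was in at least 11 libraries, for up to 5 regions per contrast and direction by score percentile, for the 5 widest peaks, for listed genes in at least 2 libraries, for H3K27me3 overlap, and for genes of the study. Leading genes of clusters, other genes at those clusters, Gm17019, Gm21847, Gm11399, Gm11400 and the genes of single-library overlaps were named after their values were seen. Members and gene lists were chosen with earlier results of these data known. RefSeq GRCm38.p6 gave gene types, starts and promoter windows. Alternatives were a score of at least 100, equal list length, the 1 kb class, keeping the left-out names, joining peaks within 1000 bp, other overlaps, a replicate block and leaving out each library. The code was tested on simulated data. Computations used pandas 2.3.3 and numpy 2.4.6 under Python 3.11.15, with figures from matplotlib 3.10.9.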

Additional observations from a re-analysis of the deposited data

Results flagged for a closer look

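The median width of promoter peaks moved in opposite directions from wild-type, being lower in mfn2-/- (0.882 times wild-type) and higher in vhl-/- (1.23 times) and HIF1dPA (1.20 times). Every mfn2-/- library was below every vhl-/- and HIF1dPA library, and the exact permutation p of the difference was 0.1 for mfn2-/- against either, the smallest that 3 against 3 libraries allow. The opposition did not hold in every processing: with lists of equal length the ratios were 0.469 in mfn2-/-, 0.786 in vhl-/- and 0.840 in HIF1dPA. That cut was stricter in the longer wild-type lists. Without the 10 fullest 1 Mb bins mfn2-/- was at 1.02 and vhl-/- at 0.995, with a p over genotypes of 0.772 (exact permutation).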

How the results depend on the processing

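List length and score follow sequencing depth, which is unknown, so absence of a peak is absence from a list and nothing more. The number of promoter peaks, the similarity within genotypes, and the greater recurrence, width and score of promoter peaks than of other peaks kept their direction and call in every alternative run, but without the 10 fullest bins the excess of promoter peaks over other peaks shrank from 1.33-fold to 1.03-fold in width, from 26.5 to 11.1 points in recurrence and from 20.4 to 10.6 points in score percentile, the H3K27me3 difference was 0.893 points in place of 2.84, and the Jaccard difference 0.0639 in place of 0.115. The run with lists of equal length did not treat the genotypes alike, so it is no support for the peak number. Where a result below changed, the cause was not tested unless stated. Alternatives without the 10 fullest 1 Mb bins, with 1 peak per gene and library, and without Gm10800 and Gm10801 were chosen after seeing the data.

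At a score of at least 100, the promoter share over 4 genotypes passed (exact permutation p = 0.0188), as did the share seen in another replicate (p = 0.0377), while mutants against wild-type gave 1.503 points for the share within 1 kb, 0.964-fold for width and -5.59 points for the share seen again. Numbers of regions in wild-type only fell to 4 against all mutants, 20 against mfn2-/-, 7 against vhl-/- and 8 against HIF1dPA, and in the reverse direction to 1 for mfn2-/-, 1 for vhl-/- and 0 for HIF1dPA.

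With lists of equal length, the promoter share differed over genotypes (exact permutation p = 0.000584) and by -6.05 points in mutants, width was 0.676-fold in mutants, 0.786-fold in vhl-/- and 0.840-fold in HIF1dPA, and the share seen again differed over genotypes (p = 0.00981). Wild-type-only regions numbered 2 against all mutants, 7 against vhl-/- and 5 against HIF1dPA. The cut behind these values was stricter in the longer wild-type lists than in the mutant lists. For the class up to 1 kb, p over genotypes for width was 0.0833, the share seen again was -7.99 points in mutants (p = 0.195, exact permutation), and wild-type-only regions numbered 10 against vhl-/- and 9 against HIF1dPA. Keeping the left-out gene names gave 1.68 points for the share within 1 kb, and joining peaks gave 0.246 points for the promoter share and 3 regions in wild-type only against all mutants. The share seen again was -6.03 points when the midpoint of a peak had to be covered and -6.67 points with 50% covered, neither past the threshold.

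Without the 10 fullest bins, p over genotypes was 0.772 for width and 0.0316 for the share seen again, the promoter share was 0.195 points higher in mutants, and width was 1.02-fold in mfn2-/- and 0.995-fold in vhl-/-. Wild-type-only regions numbered 2 against all mutants, 7 against mfn2-/-, 10 against vhl-/- and 7 against HIF1dPA, and the reverse 1 for vhl-/- and 1 for HIF1dPA. With 1 peak per gene, the promoter share had an exact permutation p = 0.0477 over genotypes and 0.949 points in mutants, the share within 1 kb 0.0252 points, the share seen again -3.94 points, and wild-type-only regions numbered 3 against all mutants, 23 against mfn2-/- and 10 against HIF1dPA. Without Gm10800 and Gm10801, the share within 1 kb was 0.0124 points higher in mutants, and the H3K27me3 difference was 0.273 points.

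Leaving out each library in turn gave, for mutants against wild-type, -0.985 to 0.0685 points for the promoter share, -2.53 to 3.55 points for the share within 1 kb and -11.4 to 2.38 points for the share seen again, whose p over genotypes ran from 0.00377 to 0.477. A genotype left with 2 libraries has 1 partner per peak and needs 2 libraries for complete presence, which by construction lowers the first and raises the second. Wild-type-only regions then numbered 7 to 17 against all mutants, 34 to 53 against mfn2-/-, 17 to 33 against vhl-/- and 16 to 30 against HIF1dPA, and the reverse 3 to 6, 5 to 11 and 5 to 11. Without wild-type replicate 2 the number against mfn2-/- was 53.

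The labels number replicates 1 to 3 in every genotype. Libraries with the same number did not visibly deviate together, with 18 correlations of region presence from -0.0600 to 0.0306. Of the 831 regions, 598 were found in 1 library, so this check could miss a pairing and none is excluded. With the replicate number as a block, p for the number of peaks was 0.00347 over genotypes and 0.0156 for mutants against wild-type, for width 0.0104 over genotypes, for the share seen again 0.0469 and for similarity 0.00521 (exact permutation within blocks), and no call changed.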
